A study of Mus musculus with 6 samples.

Results

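Glycolysis and hypoxia response genes were followed in mouse macrophages given medium or lipopolysaccharide (LPS), with and without a Trib1 knockout label. The members were a list of 34 genes, split into 22 that carry glucose from uptake to lactate export (called glycolytic here) and 12 oxygen-sensing genes and other hypoxia targets (called hypoxia genes). Each gene was read from 1 probe set, the brightest on average across all 6 arrays among those that list it alone. This gave 32 of the 34 members among 18194 genes with such a probe set. Gpi1 and Eno1 had no such probe set in the annotation used and were not analysed here. P4ha2, a collagen prolyl hydroxylase gene, lay under the floor of 29.9 on all 6 arrays, which leaves 31 members (20 glycolytic, 11 hypoxia), and all 31 passed the filter on low values for the genotype test.

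The 6 arrays were one-colour Affymetrix arrays. The LPS pair is 1 wild-type array with medium and 1 with LPS, which the series uses to define LPS-inducible genes. The other 4, called the Trib1-line arrays, all received LPS: 2 wild type and 2 knockout, numbered 1 and 2 within each genotype. LPS is a bacterial cell wall component sensed through Toll-like receptor signalling, and Trib1 is a pseudokinase that brings C/EBP factors to a ubiquitin ligase. The labels give no macrophage source, strain, allele, age, dose or time, and do not say whether the arrays come from separate animals, so p-values measure the spread between these samples, which may be technical.

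Values are MAS5 intensities rescaled to a common trimmed mean of 234. Between 57.9% and 63.1% of the probe sets on each array exceeded the floor. The 3′ over 5′ signal ratio of the control probe sets, a measure of RNA integrity, ran from 0.724 to 0.804 for Gapdh and from 1.05 to 1.12 for Actb. All 10 macrophage markers with a probe set, such as Cd68, Lyz2 and Csf1r, were above the floor on every array. The first Trib1 probe set gave 383 in medium and 189 after LPS in the pair. In the Trib1 line it gave 17.9 and 17.5 on the arrays labelled wild type, both under the floor, and 88.1 and 20.9 on those labelled knockout. The second gave 37.1 and 29.3 in the pair, then 20.2 and 63.0 (wild type) and 32.3 and 38.7 (knockout). The first probe set was not higher under the wild-type label of the Trib1 line, and where either probe set lies relative to the deletion is not given. Between the pair and the Trib1 line, a difference cannot be told apart from one of array set. Wild type and knockout-labelled therefore stand for the label alone on these 4 arrays, and every direction between genotypes is one between labels.

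Glycolysis splits glucose into pyruvate, and macrophages activated by LPS are known to lean on it and to reduce pyruvate to lactate. The transcription factor HIF1, made of an oxygen-labile alpha subunit and a stable partner, raises many of these genes when oxygen is short. Prolyl hydroxylases of the Egln family mark the alpha subunit for destruction in normal oxygen. HIF binds a short core, ACGTG or GCGTG, in the promoters and enhancers of its targets.

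The promoters of 4 members that stood at least 2-fold above every other Trib1-line array on knockout-labelled array 1 are shown, since the members differed most from other genes on that array. They were chosen after the values were seen. Each is the RefSeq window of GRCm38.p6 from 250 bases before to 50 after the most upstream listed start, written 5′ to 3′ along the gene, with ACGTG and GCGTG on either strand in capitals.
Slc16a3 (chr11:120948817-120949116, plus strand): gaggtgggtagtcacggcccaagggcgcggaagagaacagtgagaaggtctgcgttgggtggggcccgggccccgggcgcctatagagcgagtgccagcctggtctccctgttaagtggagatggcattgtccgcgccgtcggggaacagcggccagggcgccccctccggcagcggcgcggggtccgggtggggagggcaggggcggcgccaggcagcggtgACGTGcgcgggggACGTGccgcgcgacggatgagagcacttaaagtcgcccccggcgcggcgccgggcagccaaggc
Bnip3 (chr7:138909457-138909756, minus strand): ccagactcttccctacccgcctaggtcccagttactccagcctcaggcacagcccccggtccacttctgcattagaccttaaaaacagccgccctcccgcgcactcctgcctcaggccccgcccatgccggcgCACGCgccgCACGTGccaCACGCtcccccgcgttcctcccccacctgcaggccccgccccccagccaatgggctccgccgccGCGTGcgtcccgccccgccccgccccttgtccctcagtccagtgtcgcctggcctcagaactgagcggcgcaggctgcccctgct
Pfkfb3 (chr2:11553880-11554179, minus strand): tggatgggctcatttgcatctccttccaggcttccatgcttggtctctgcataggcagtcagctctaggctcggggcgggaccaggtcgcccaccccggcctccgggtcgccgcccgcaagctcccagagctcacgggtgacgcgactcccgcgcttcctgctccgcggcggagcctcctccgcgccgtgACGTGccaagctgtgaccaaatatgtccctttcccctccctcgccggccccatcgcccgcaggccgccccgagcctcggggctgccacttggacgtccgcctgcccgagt
Ddit4 (chr10:59951721-59952020, minus strand): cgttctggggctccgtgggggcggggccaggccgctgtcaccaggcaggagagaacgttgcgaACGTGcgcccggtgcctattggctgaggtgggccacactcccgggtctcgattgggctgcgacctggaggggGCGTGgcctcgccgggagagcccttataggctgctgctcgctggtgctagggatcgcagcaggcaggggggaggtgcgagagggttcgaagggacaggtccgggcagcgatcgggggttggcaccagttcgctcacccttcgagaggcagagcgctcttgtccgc
Slc16a3 holds 2 copies of ACGTG on the gene's strand, whose first bases lie 27 and 14 bases before the start. Bnip3 holds 5 matches, of which 2 overlap in 1 palindrome (CACGTG, also the E-box bound by other factors) at 108 bases before the start. Pfkfb3 holds 1 ACGTG at 60 bases before the start, and Ddit4 an ACGTG at 187 and a GCGTG at 115. The 5 members past 2-fold on that array include Vegfa, whose most upstream window holds neither motif and is not shown. Its other window holds 1 ACGTG and 1 GCGTG.

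Of the 33 members with a promoter window, 30 (90.9%) held ACGTG or GCGTG on either strand in at least 1 window. The share was 62.8% of the 11170 genes tested on these arrays that have a window, and 46.7% of all 27025 genes with one. For ACGTG alone the shares were 75.8% of members and 27.6% of the genes tested, and for GCGTG alone 63.6% and 51.5%. Of the 12 members at least 1.5-fold above every other Trib1-line array on knockout-labelled array 1, 11 (91.7%) held ACGTG or GCGTG. Of these 12, 9 held ACGTG and 9 held GCGTG. The share with either motif was thus close to that of all 33 members, which include these 12. A match is a description of the letters, and members can have several windows.

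**Figure D1:**
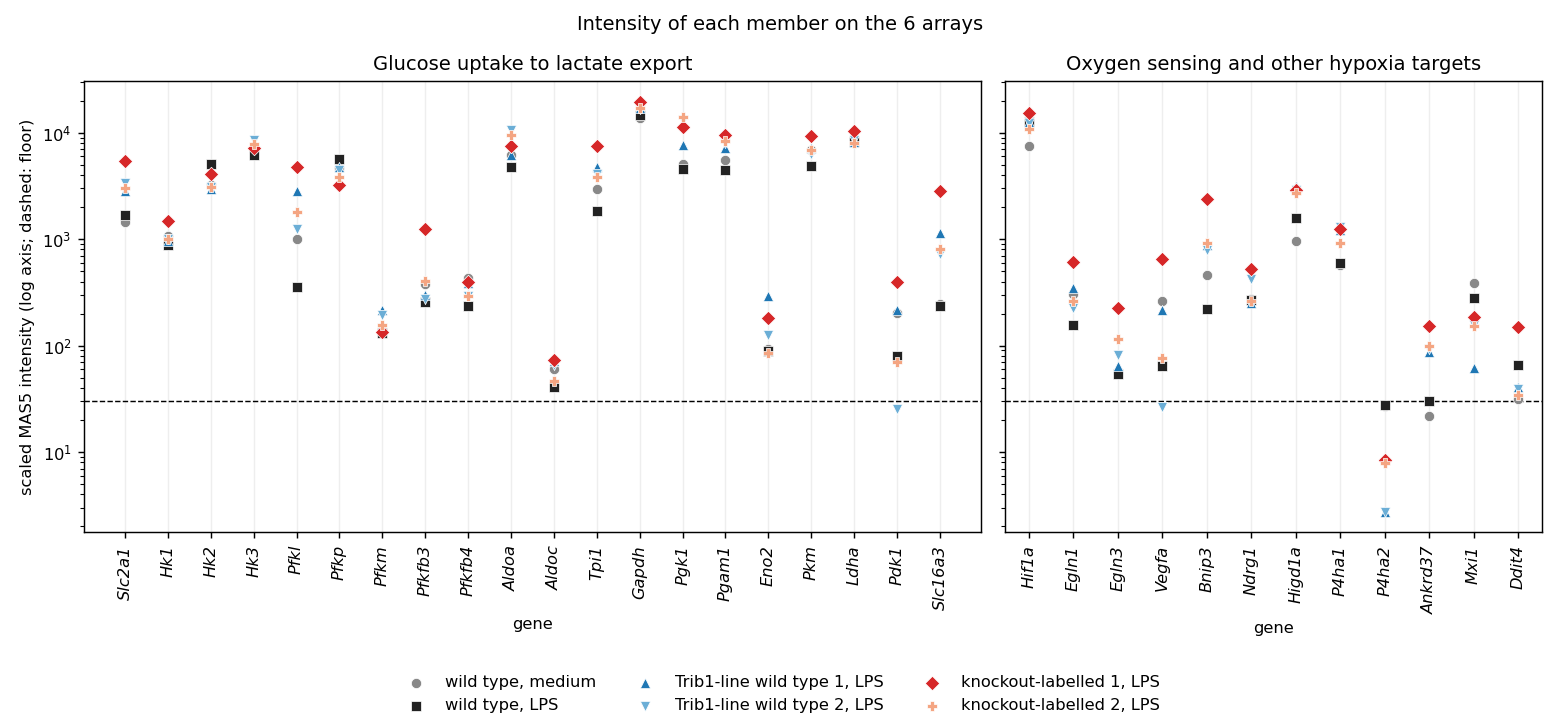
Scaled MAS5 intensity (log axis) of each of the 32 measured members on the 6 arrays, with glycolytic genes at left and hypoxia genes at right. The dashed line is the floor of 29.9, and knockout-labelled array 1 (diamonds) is the highest Trib1-line array for 23 of the 31 members tested.

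After LPS in the LPS pair, most glycolytic genes lay close to their medium level and somewhat below it. The median log2 ratio was -0.22 over 20 glycolytic genes and -0.02 over 11 hypoxia genes, beside -0.11 over all 13702 genes above the floor on either array. Of the glycolytic genes 4 of 20 lay above medium, beside 42.0% of all genes, and 14 of the 16 below it were within 2-fold. At a rule of 2-fold, 1 of 31 members was higher, beside 5.44% of all genes, and 4 of 31 were lower, beside 6.71%. With 1 array per condition there is no test and no error.

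Vegfa, which encodes the main vascular growth factor, went from 265 in medium to 65.0 after LPS (4.08-fold lower). Its other probe set went from 246 to 57.5. Pfkl, the liver-type phosphofructokinase of the committed step, went from 997 to 355 (2.81-fold lower), and its other probe sets went from 658 to 479 and from 91.3 to 58.2. Both genes were thus lower after LPS on every probe set, Pfkl by less than 2-fold on those not chosen.

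Pdk1, a kinase that inhibits pyruvate dehydrogenase, went from 203 to 79.6 (2.55-fold lower). Its second-brightest probe set went from 200 to 16.5, under the floor, and its dimmer ones lay under the floor on both arrays. Bnip3, a mitophagy receptor, went from 465 to 222 (2.09-fold lower). Ddit4, an inhibitor of mTORC1 signalling, went from 31.6, close to the floor, to 65.2 (2.06-fold higher). Egln1, the main oxygen-sensing prolyl hydroxylase, lay just short of 2-fold at 304 and 155 (1.96-fold lower). Hk2, the inducible hexokinase, went from 3246 to 5129 (1.58-fold higher), while the wild-type LPS arrays of the Trib1 line gave 2969 and 3114.

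The other arrays labelled wild type and LPS repeated these calls in part, for Pdk1 and Vegfa on array 2. In the Trib1 line, wild-type arrays 1 and 2 gave 2844 and 1235 for Pfkl and 889 and 796 for Bnip3, above the medium array and not below it. Pdk1 gave 214 and 25.2, and Vegfa 214 and 26.7, so that each was near medium on the first array and under the floor on the second. The other Vegfa probe set gave 143 and 144 there, so the value under the floor is not shared by both. Ddit4 measured 40.9 and 39.4. No member was at least 2-fold above medium on all 3 wild-type LPS arrays, beside 1.97% of all genes, and none was 2-fold below, beside 2.19%. These ratios share the single medium array.

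**Figure D2:**
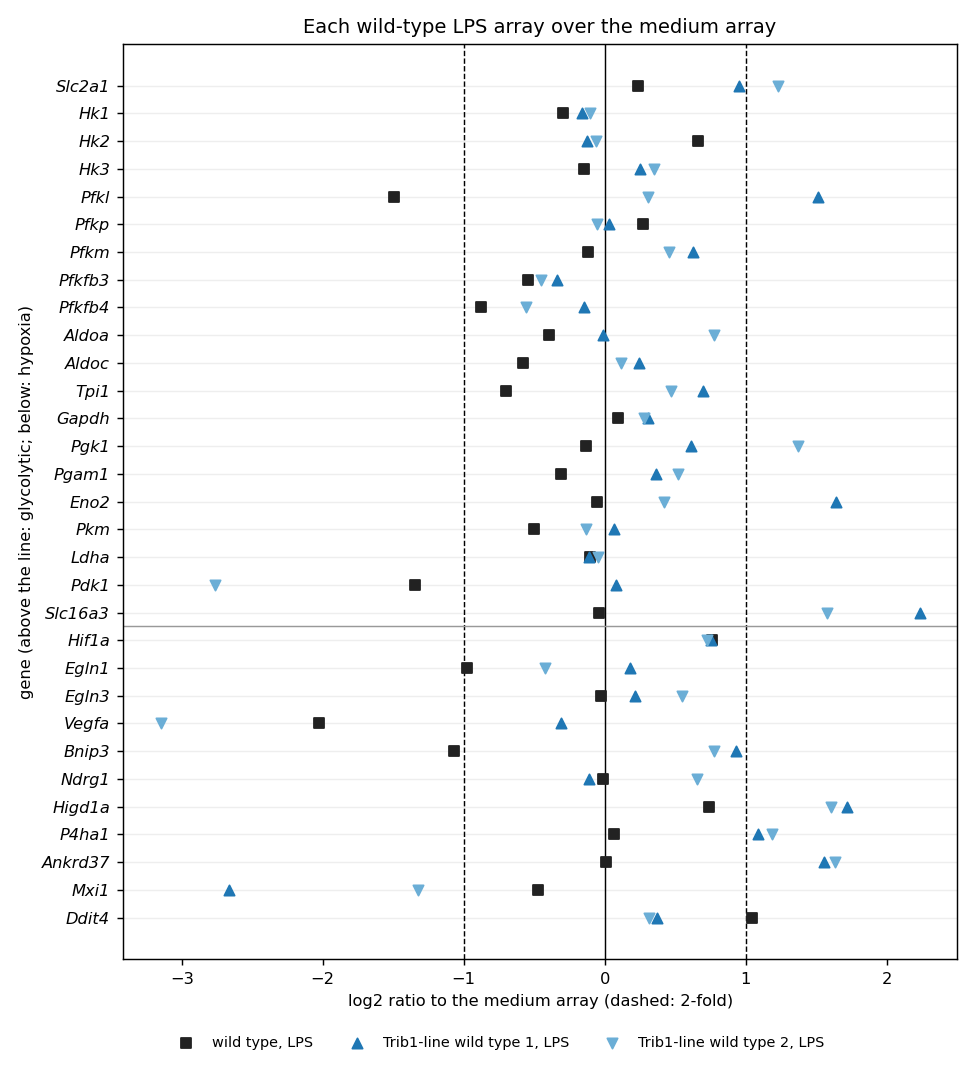
Log2 ratio of each of the 3 wild-type LPS arrays to the medium array for the 31 members above the floor. Dashed lines mark 2-fold, and no gene has all 3 points beyond the same line.

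On its brightest probe set Hif1a, the oxygen-labile HIF subunit, had near-equal values across the 3 wild-type LPS arrays, though not on its others. It measured 7420 in medium and 12574, 12509 and 12244 on the 3 wild-type LPS arrays, which is 1.69-, 1.69- and 1.65-fold. A second probe set of the gene went from 1331 to 2776, 3697 and 3881, another from 1863 to 3014, 4489 and 3291, and the dimmest from 40.5 to 46.3, 62.2 and a value under the floor. All 3 LPS arrays lay above medium on the brightest 3 probe sets. Higd1a, a mitochondrial inner membrane protein gene, measured 952 in medium and 1588, 3137 and 2896. Its dimmer probe sets gave less in the LPS pair, 79.8 to 80.2 (1.01-fold) and 23.8, under the floor, to 39.6 (at least 1.33-fold), and 148 and 145, and 76.7 and 75.5, in wild type of the Trib1 line. On the chosen probe sets these 2 hypoxia genes, and no glycolytic gene, were at least 1.5-fold above medium on all 3 arrays (2 of 31, beside 4.75% of all genes).

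Compared with medium, both wild-type Trib1-line arrays were at least 2-fold higher for 4 of 31 members, beside 3.96% of all genes. Slc16a3, the lactate exporter MCT4, measured 244 in medium and 237 on the LPS array of the pair, but 1146 and 728 in wild type of the Trib1 line (4.70- and 2.99-fold). P4ha1, another collagen prolyl hydroxylase gene, measured 575 and 601 in the pair and 1224 and 1309 on them. Ankrd37, an ankyrin repeat gene known as a HIF target, lay under the floor in medium (22.0), at 30.1 on the LPS array, and at 87.8 and 92.5, at least 2.94- and 3.10-fold above medium. Higd1a was the fourth.

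The Trib1-line arrays were deposited on another scale than the pair, and in this comparison treatment and array set cannot be told apart. In the other direction 1 member, Mxi1, an antagonist of Myc, was at least 2-fold below medium on both (388 in medium, 61.2 and 155), beside 4.78% of all genes. Its second probe set measured 137 in medium and 104 and 127. Slc2a1, the main glucose transporter GLUT1, measured 1445 in medium, 1701 on the LPS array, and 2804 and 3395. Pgk1, an ATP-forming enzyme of the lower pathway, measured 5053, 4604, 7724 and 13098 in the same order. Ldha, which makes lactate from pyruvate, measured 8858, 8223, 8187 and 8586 and lay within 1.08-fold of medium on all 3.

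The genotype comparison asks which genes differ with Trib1 after LPS. No member passed: limma called 0 of 31 at a Benjamini-Hochberg adjusted p under 0.05, beside 0 of 29086 probe sets (0%), and the members' adjusted p ran from 0.978 to 0.999. At an unadjusted p under 0.05 it called 2 of 31 members, beside 4.99% of all probe sets (1451). The median log2 difference, knockout-labelled minus wild type, was 0.23 over 20 glycolytic genes and 0.51 over 11 hypoxia genes, beside 0.01 over all 13900 genes tested. Both medians rest on knockout-labelled array 1: without it they were -0.072 and -0.093.

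The 2 members were Pfkfb3, which makes the activator of phosphofructokinase, and Egln3, a HIF-induced prolyl hydroxylase. Pfkfb3 gave 298 and 275 in wild type and 1237 and 403 in the knockout-labelled arrays (log2 1.30, SE 0.52, 95% interval 0.01 to 2.59, n = 2 per genotype; limma adjusted p = 0.994). Egln3 measured 64.6 and 81.5 against 228 and 115 (log2 1.16, SE 0.45, 95% interval 0.04 to 2.27; limma adjusted p = 0.978). On the chosen probe sets of both genes the knockout-labelled arrays lay above the wild-type arrays, with the higher value on array 1. The other Pfkfb3 probe set gave 101 and 168 against 297 and 212. The other Egln3 probe set gave 34.1 and 12.3 against 109 and 7.14, with both arrays numbered 2 under the floor and overlapping groups. Without knockout-labelled array 2, Pfkfb3 passed (log2 2.11, limma adjusted p = 0.0391), and without knockout-labelled array 1 its difference was 0.49 (limma adjusted p = 1.00).

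Among the other glycolytic genes with the smallest p, 2 phosphofructokinase genes were lower on both knockout-labelled arrays. Pfkp, the platelet type, measured 4762 and 4503 against 3254 and 3837 (log2 -0.39, SE 0.17). Pfkm, the muscle type, measured 218 and 194 against 136 and 155 (log2 -0.51, SE 0.29). Pfkl, the third member of the family, ran the other way, at 2844 and 1235 against 4758 and 1791 with overlapping groups (log2 0.64, SE 0.57). Pgam1, which moves the phosphate of phosphoglycerate, measured 7150 and 7946 against 9483 and 8410 (log2 0.24, SE 0.17). Hk1, a hexokinase that traps glucose by phosphorylation, measured 959.5 and 998 against 1480 and 1001 (log2 0.31, SE 0.24).

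Of the hypoxia genes with the next smallest p, Bnip3 and Ankrd37 were highest on knockout-labelled array 1 and separated by genotype. Bnip3 measured 889 and 796 in wild type against 2394 and 926 (log2 0.82, SE 0.44). Ankrd37 measured 87.8 and 92.5 against 153 and 99.7 (log2 0.46, SE 0.38). In both, knockout-labelled array 2 lay barely above the wild-type arrays. Mxi1 measured 61.2 and 155 against 187 and 154 (log2 0.80, SE 0.51), and Ddit4 40.9 and 39.4 against 148 and 34.3 (log2 0.83, SE 0.70), with overlapping groups. Several of these log2 differences rest on 1 array. Without knockout-labelled array 1 they were 0.66 for Egln3, 0.14 for Bnip3, 0.15 for Ankrd37, 0.033 for Hk1, 0.16 for Pgam1 and -0.23 for Ddit4. Without knockout-labelled array 2 they were 1.51 for Bnip3, 0.77 for Ankrd37, 0.60 for Hk1 and 1.88 for Ddit4. The Mxi1 difference was 0.13 without wild type 1 and 1.47 without wild type 2.

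Genotypes were separated, both knockout-labelled arrays above both wild-type arrays, for 6 of 31 members, beside 16.9% of all genes. They were separated the other way for 3, beside 15.7%. The 6 were Hk1, Pfkfb3, Pgam1, Egln3, Bnip3 and Ankrd37, and the 3 were Hk3, Pfkp and Pfkm. Groups overlapped on the other probe sets of Hk1 (519 and 455 against 743 and 424), Hk3 (7043 and 8086 against 5936 and 7887) and Egln3. They also overlapped on the second-brightest of Pfkp (1789 and 2135 against 1888 and 1684). The other Pfkfb3 probe set and the dimmest of Pfkp were separated as the chosen ones were. Probe sets not chosen were also separated for members not counted here. Knockout-labelled arrays were higher on both others of Pgk1, the second of Mxi1 (104 and 127 against 153 and 141) and 1 of Gapdh. They were lower on the dimmest of Pfkl and of Higd1a and on the other of P4ha1 (800 and 1010 against 735 and 712). With probe set means 12 members were separated, 8 above and 4 below, with no count over all genes beside it. At 1.5-fold no member was separated in either direction, beside 1.73% and 1.46% of all genes. With 2 arrays per genotype the smallest two-sided p of an exact permutation test is 0.333.

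The knockout-labelled arrays differed from each other in these genes. A rule made after the values were seen counted genes at least 1.5-fold above each of the other 3 Trib1-line arrays on 1 array. On knockout-labelled array 1 it gave 12 of 31 members (38.7%), beside 2.37% of the 13900 genes tested. On knockout-labelled array 2 it gave 0 members, beside 2.98%, on wild type 1 it gave 1 (Eno2), beside 1.32%, and on wild type 2 it gave 0, beside 4.11%. The list's 12 were 6 glycolytic and 6 hypoxia genes. Any margin counted, 23 of 31 members were highest on knockout-labelled array 1, beside 23.8% of all genes.

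**Figure D3:**
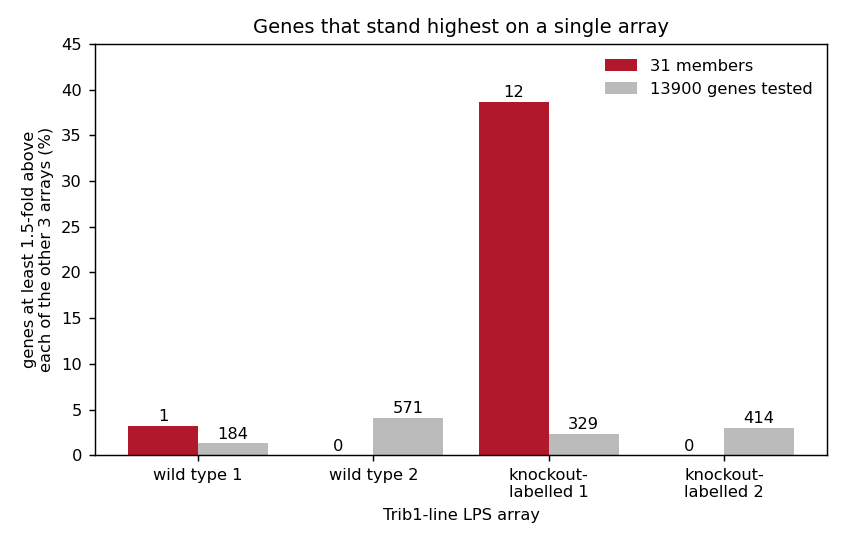
Percent of the 31 members (red) and of the 13900 genes tested (grey) that lie at least 1.5-fold above each of the other 3 Trib1-line arrays, for each array, with counts over the bars. The members reach 38.7% on knockout-labelled array 1 and at most 1 gene on any other array.

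The 6 glycolytic genes among the 12 included both membrane transporters and no measured enzyme of the steps from Gapdh to Ldha, where Eno1 was not measured. At glucose entry, Slc2a1 gave 2804 and 3395 in wild type, then 5412 and 3041 in the knockout-labelled arrays. At lactate exit, Slc16a3 measured 1146 and 728 against 2843 and 813. Array 1 was 1.59-fold and 2.48-fold above the next array for these transporters, and array 2 lay within the wild-type range. The later enzymes Gapdh, Pgk1, Pgam1, Eno2, Pkm and Ldha stood at 1.15-, 0.807-, 1.13-, 0.618-, 1.29- and 1.21-fold of the next array. Earlier enzymes also fell short of the rule. Hk1, Hk2, Hk3, Pfkp, Pfkm and Aldoa stood at 1.48-, 1.31-, 0.842-, 0.683-, 0.621- and 0.703-fold. Aldoc and the regulator Pfkfb4 each stood at 1.02-fold.

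The other glycolytic genes that met the rule were the phosphofructokinase gene Pfkl (1.67-fold above the next array) and its regulator Pfkfb3 (3.07-fold). Tpi1, the triose isomerase (1.56-fold), and Pdk1 (1.86-fold) met it too. Tpi1 measured 4813 and 4125 against 7497 and 3868, and Pdk1 214 and 25.2 against 398 and 70.7. Both wild-type Pdk1 values differ from each other by more than the genotypes' means do.

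The hypoxia genes among the 12 were Ddit4 (3.62-fold above the next array), Vegfa (3.04-fold), Bnip3 (2.59-fold), Egln3 (1.98-fold), Egln1 (1.75-fold) and Ankrd37 (1.54-fold). Vegfa measured 214 and 26.7 in wild type and 652 and 76.2 under the knockout label, and its other probe set 143 and 144 against 522 and 61.7, so that knockout-labelled array 2 lay above or below wild type 2 depending on the probe set. Egln1 measured 345 and 226 against 605 and 262. Both Egln genes and Ankrd37 are known to be raised by HIF as part of its own feedback and target programme. The choice of the 12 fixed their chosen probe sets. Of the 12 other probe sets tested for these genes, which read the same RNA, 11 were highest on knockout-labelled array 1, the exception being the dimmest of Pfkl. Of the 23 other probe sets of the remaining members, 13 were.

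Same-numbered arrays show the contrast within the genotype comparison. Knockout-labelled 1 minus wild type 1 had a median log2 difference of 0.39 over glycolytic genes, with 16 of 20 above 0, and of 1.05 over hypoxia genes, with 10 of 11 above 0. Over all genes the median was 0 and 49.3% lay above 0. Knockout-labelled 2 minus wild type 2 gave medians of -0.01 and -0.01, with 9 of 20 and 5 of 11 above 0, beside a median of 0.01 over all genes. These pairs share no array, and the labels do not say that a number marks a shared origin.

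**Figure D4:**
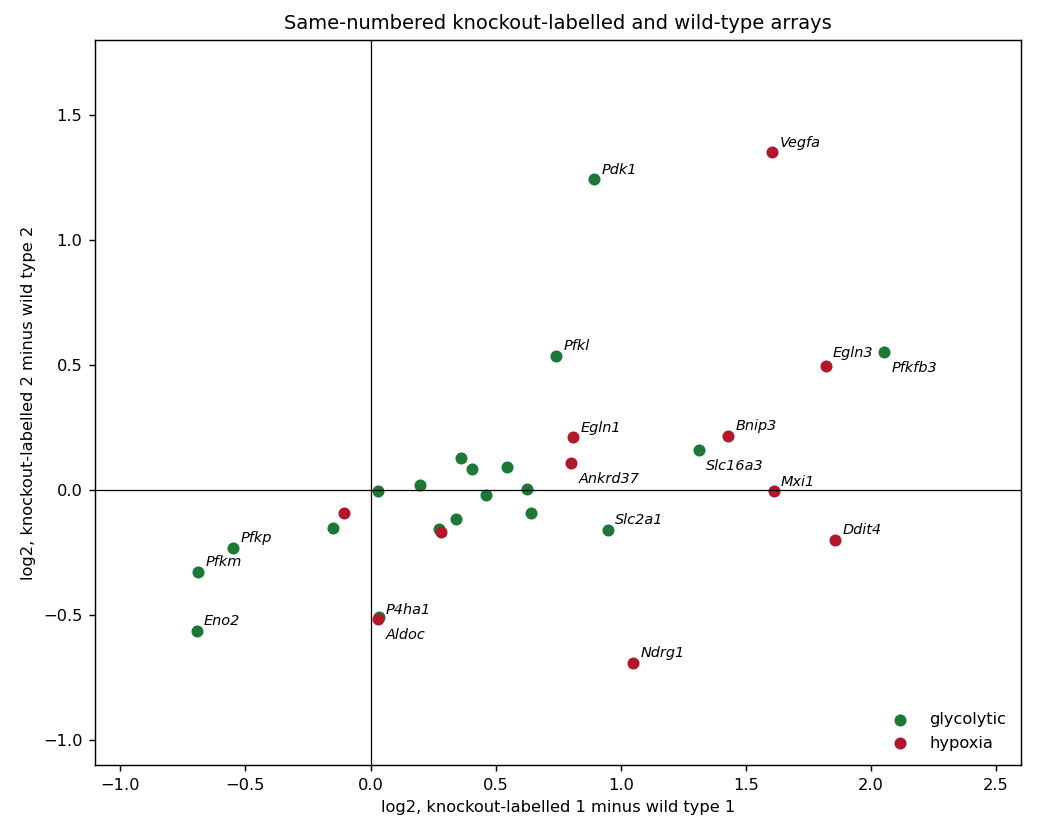
Log2 difference of the knockout-labelled minus the wild-type array, number 1 on the horizontal axis and number 2 on the vertical axis, for the 31 members tested (green glycolytic, red hypoxia). Most points lie right of 0 and near 0 on the vertical axis, with Vegfa and Pdk1 above 1 on the vertical axis, where their wild type 2 value lies under the floor.

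Between the 2 knockout-labelled arrays, 11 of 11 hypoxia genes and 15 of 20 glycolytic genes were higher on array 1, beside 45.1% of all genes. The largest ratios were in Vegfa (8.56-fold), Pdk1 (5.63-fold), Ddit4 (4.32-fold) and Slc16a3 (3.50-fold). Between the 2 wild-type arrays the medians, array 1 minus array 2, were 0.10 and 0.03. Ndrg1, a stress-responsive gene, measured 251 and 427 in wild type and 519 and 265 under the knockout label, so its direction differed between the same-numbered pairs.

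Some members were not highest on array 1, or were so by a small margin. Higd1a measured 3137 and 2896 in wild type against 2914 and 2719, and P4ha1 1224 and 1309 against 1251 and 915. Pgk1 measured 7724 and 13098 against 11277 and 13976, and Aldoa, which cleaves fructose bisphosphate, 6164 and 10611 against 7455 and 9515, so both were higher on arrays numbered 2. For Aldoa this depended on the probe set: 1 of its others gave 6965 and 6902 against 8406 and 6051, and another 3076 and 3056 against 3604 and 2830, highest on knockout-labelled array 1. On both other Pgk1 probe sets the knockout-labelled arrays lay above both wild-type arrays. These gave 6084 and 7541 against 8132 and 8215, and 775 and 1063 against 1389 and 1622 (log2 0.73, SE 0.22, limma adjusted p = 0.949). Eno2, the neuronal-type enolase, measured 292 and 125 against 180.5 and 84.9. The remaining glycolytic genes, Hk2, Hk3, Pfkfb4, Aldoc, Gapdh, Pkm and Ldha, had log2 differences from -0.24 to 0.24, with Hk3 at 8053 and 8609 against 7251 and 7747. Hif1a itself measured 12509 and 12244 against 15188 and 10891 (log2 0.06, SE 0.21).

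The summed level of neutrophil markers was also highest on knockout-labelled array 1. Of 10 markers 8 had a probe set, and 5 were above the floor on each wild-type array, 8 on knockout-labelled array 1 and 6 on array 2. They summed to 1607 and 1610 in wild type against 16449 and 7847 under the knockout label. S100a8 alone gave 1251 and 1238 against 8853 and 7314. S100a9, a neutrophil calcium-binding protein gene, measured 11.5 and 8.10 against 6906 and 206, and the granule gene Camp lay under the floor in wild type and at 219.9 and 66.9 under the knockout label. The granulocyte receptor gene Cxcr2 measured 32.6 on knockout-labelled array 1, near the floor, and lay under it on the other 3. Ngp, another granule gene, gave 99.9 and 80.0 against 219 and 68.7. The granule gene Ltf ran the other way, at 87.0 and 87.2 against 40.2 and 12.7. The granule enzyme genes Mpo (68.6 and 95.5 against 90.1 and 87.7) and Elane (64.4 and 77.7 against 87.2 and 74.5) had overlapping groups. Without S100a8 the sums were 356 and 372 against 7596 and 533. Mesothelial and stromal markers summed to 7229 and 6245 against 14253 and 16475.5, of which Pdpn alone gave 6118 and 4849 against 12532 and 12270. Without Pdpn they summed to 1111 and 1396 against 1722 and 4206, highest on knockout-labelled array 2. Mast cell markers summed to 697 and 1023 against 205 and 268, B cell markers to 603 and 787 against 394 and 630, and T and NK cell markers to 412 and 599 against 361 and 439. The part of any of these cells in the values of the members was not tested. In bulk RNA a change in cell number and in RNA per cell cannot be told apart.

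The other genes of these pathways were read from lists of their own. Of 23 further genes of glucose transport, pyruvate handling and isoenzymes, 19 had a probe set. One of the 17 measured, Slc2a6, of the glucose transporter family, was past 2-fold on all 3 wild-type LPS arrays, from 1043 in medium to 6876, 7688 and 7096. None of the 16 tested passed limma between genotypes (smallest adjusted p 0.899), and 1 of 16, Slc2a3, met the 1.5-fold rule on knockout-labelled array 1. Of 20 further hypoxia targets, 17 had a probe set, none was past 2-fold on all 3 LPS arrays, and none of 16 tested passed limma (smallest adjusted p 0.765). At an unadjusted limma p under 0.05, 3 of the 16 were higher under the knockout label and 1 lower, beside 4.99% of all probe sets. The strongest was Hmox1, at 1803 and 1556 in wild type against 3321 and 3540, and the lower one was Cited2. Genotypes were separated upward for 5 of the 16, beside 16.9% of all genes, and downward for 2, beside 15.7%. One of the 16, Ero1a, an oxidase of protein folding, met the rule on array 1, at 914 and 817 in wild type against 1400 and 713. At any margin 9 of these 16 were highest on knockout-labelled array 1, beside 23.8% of all genes, as were 4 of the 16 genes of the first list. Gys1, the muscle-type glycogen synthase gene, was not tested, since it exceeded the floor on that array alone (91.1, at least 3.05-fold above the others).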

How the data were processed

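RNA of 6 macrophage samples was measured on one-colour Affymetrix arrays. The deposited values are linear probe set intensity values made by the authors with MAS5, per the submitters' processing notes. Its version and scaling target are not given in the sources used here, and arrays were deposited on different scales (mean without the lowest and highest 2% of 500 on the LPS pair and 95.5 to 107 on the others), so each was rescaled to 234. Of 45101 probe sets, 64 controls were left out except the 3 that alone list Gapdh. Of the 45040 used, 34948 list 1 gene symbol, 932 several and 9160 none, and 34744 matched a RefSeq gene. Values under the pooled 40th percentile (29.9) were set to it before log2. A fold against a group under that floor is a lower bound.

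The genotype fit used limma 3.58.1 under R 4.3.3, with lmFit and a trended eBayes prior. It had 2 residual and 3.68 prior degrees of freedom. Two-sided p-values were Benjamini-Hochberg adjusted over 29086 probe sets that exceeded the floor on 2 or more of the 4 Trib1-line arrays. Counts over all genes use 1 probe set per gene, chosen as for the members. The chosen probe sets of Hk3, Aldoa, Tpi1 and Pgk1 carry the _x_ suffix, which marks probes that may bind related transcripts. The fit was also run on simulated data with the same spread for every probe set and changes only well above the floor. Members here differ in spread and some lie near the floor, so that run does not cover them. Members and lists were chosen with earlier results of these data known. The naming rule gave values for members past the LPS rule, for the 5 of each group with the smallest genotype p and for those separated at 1.5-fold, and named further genes where they passed a rule. Other members and genes given with values were chosen after their values were seen. The rule tied promoters to members past 2-fold on 3 arrays. None passed, so promoters were chosen on knockout-labelled array 1. Precision is limited by having 1 or 2 arrays per group. Alternatives were other scalings, floors, a pseudocount of 16, filters, probe set means, folds, arrays left out or exchanged, the replicate number as a block and a prior without a trend. Figures used Python 3.11.15 and matplotlib 3.10.9.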

Additional observations from a re-analysis of the deposited data

How the results depend on the processing

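The count of members past 2-fold in the LPS pair was 5 (1 higher, 4 lower). With wild-type Trib1-line arrays 1 and 2 in place of the LPS array it became 7 (6 higher, 1 lower) and 9 (6 higher, 3 lower). At 1.5-fold it was 11 and at 4-fold 1. The count on all 3 LPS arrays (0) became 2 at 1.5-fold and 3 with the values as deposited, where the Trib1-line arrays are on a lower scale. The LPS medians became 0.25 and 0.29 (glycolytic) and 0.37 and 0.65 (hypoxia) with wild-type Trib1-line arrays 1 and 2 in place of the LPS array. In the same exchange Pfkl was at 1.51 and 0.31, Bnip3 at 0.94 and 0.78, and Pdk1 at 0.078 with array 1, each above 0. Quantile normalization, other floors and probe set means kept both counts within 1.5 times, but single calls were lost: Ddit4 was at 0 with the 60th percentile floor and 0.77 with the pseudocount, Bnip3 at -0.91 with quantile normalization and Pfkl at -0.87 with probe set means.

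Leaving out 1 array, which assumes that a lone array varies like the other genotype, gave 5 to 57 calls over all probe sets in place of 0, 0 to 1 member in place of 0, and 17 to 26 separated members in place of 9. The fewer arrays left, the more easily groups are separated. Over the same settings the glycolytic genotype median ran from -0.072 (without knockout-labelled array 1) to 0.32, the hypoxia median from -0.093 to 0.94, and the Ddit4 difference from -0.23 (without knockout-labelled array 1) to 1.88. A replicate block on the label numbers gave 117 calls over all probe sets (85 higher, 32 lower) and no member, and 19 members with the same direction in both pairs. The numbers are only numbers in the labels. Across probe sets, wild type 1 minus 2 correlated with knockout-labelled 1 minus 2 at Pearson r = 0.35 and Spearman rho = 0.35, and with 2 pairs this does not establish pairing. The count of 12 members on knockout-labelled array 1, whose alternatives were chosen after seeing the data, ran from 10 to 13 with other scalings, floors, probe set means or 1 array left out, and was 5 at 2-fold. Apart from those named, the cause of a change was not tested.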

Other observations

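The pentose phosphate pathway branches from glycolysis and makes NADPH. Of 7 of its enzyme genes 6 had a probe set, and none passed 2-fold in the LPS pair. Their median log2 ratio of LPS over medium was -0.59, beside -0.11 over all genes. Tkt, the transketolase, measured 6098 in medium and 3722 after LPS, and 5230.5 and 5293 in wild type of the Trib1 line. Taldo1, the transaldolase, measured 3166 and 1811, and 2115 and 2590.2. Pgd and Pgls were also lower after LPS, at 5755 and 3343 and at 1082 and 778. Rpe was higher (591 and 899), and Rpia measured 476 and 515. None of the 6 passed limma between genotypes, and none met the 1.5-fold rule on knockout-labelled array 1.

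Of 6 further genes of HIF machinery, all with a probe set, 1 (Hif3a) was past 2-fold in the LPS pair, from 96.0 to 36.8, while wild type of the Trib1 line gave 116 and 198, above medium. None was past it on all 3 wild-type LPS arrays. None passed limma between genotypes (smallest adjusted p = 0.999). The genes named here were chosen after their values were seen. Epas1, which encodes the HIF2 alpha subunit, measured 2507 in medium and 1758 on the LPS array of the pair, with 413 and 146 in wild type of the Trib1 line and 376 and 232 under the knockout label. Every Trib1-line array thus lay under both arrays of the pair. Hif1an, an asparagine hydroxylase that inhibits HIF, measured 103 in medium, 158 after LPS, and 241 and 206 in wild type of the Trib1 line.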
